A study of Pleuronichthys verticalis with 38 samples.

Results

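The transcripts described here are the 150, of 5362 candidates measured in every liver, whose level differed most from fish to fish. They exclude a small block of transcripts that rose and fell together and the most abundant transcripts of the tissue. The liver of a fish makes most plasma proteins, stores and exports lipid and clears foreign compounds, and many liver transcripts are known to differ between individual animals with sex, feeding, season and genotype. Polybrominated diphenyl ethers (PBDEs), a class of flame retardants, and polychlorinated biphenyls (PCBs), insulating fluids no longer made, both build up in fatty tissue, and some members of these classes are known to switch on detoxification genes in vertebrate liver. The files pair each probe of this custom-designed array with a contig number but with no gene name. The members are therefore named by probe, no role can be given to any of them, and the labelled tissue could not be checked against liver genes.

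The study measured liver RNA of 38 hornyhead turbot (Pleuronichthys verticalis), a flatfish, on 1 array per fish. The groups were Low PBDE (0.5 µg/g body weight, 7 fish), High PBDE (5 µg/g, 6 fish), Low PCB (1 µg/g, 5 fish), High PCB (10 µg/g, 7 fish), Oil Control (6 fish) and Seawater Control (7 fish). Per the labels, the PBDE mixture held BDE47, BDE99 and BDE100, and the PCB mixture held the 13 congeners PCB180, 170, 153, 149, 138, 118, 105, 101, 99, 87, 66, 52 and 49. The exposed fish received 1 injection into the body cavity of the mixture in oil at 2 mL/kg, the Oil Control fish received peanut oil alone, and the Seawater Control fish were not injected. Livers were taken after 96 h. The labels give 10 females, 26 males and 2 immature fish, spread unevenly: 2 of 7 Low PBDE, 0 of 6 High PBDE, 4 of 5 Low PCB, 1 of 7 High PCB, 1 of 6 Oil Control and 2 of 7 Seawater Control fish were female. Fish are named below by group and the fish number of the labels. In whole liver, fewer cells of a type and less RNA per cell cannot be told apart.

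The level of a probe was the log2 of its background-subtracted signal minus the log2 of the 75th percentile of that array, so that a level of 0 equals the 75th percentile and 1 unit is a doubling. This percentile lay between 43.6 and 194 intensity units over the 38 arrays, with a median of 121. The scanner software called 5572 of 14757 probes well above background in every one of the 38 fish. Leaving out the 200 probes with the highest mean level and the 10 that had a Pearson r of 0.8 or more with the mean of 3 co-varying probes left 5362 candidates. The members were chosen by the measured spread: they are the 150 candidates (2.80%) with the highest standard deviation (SD) of the level over the 38 fish. The other 5212 candidates serve as the comparison below. The SD chose the members, so the spreads that follow are a description without a test.

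The SD of the members ranged from 1.15 to 2.63 log2 units with a median of 1.30, against a median of 0.446 in the other candidates. The difference between the highest and the lowest fish was 42.0-fold for the median member, with a range from 13.9-fold to 2464-fold, against 3.90-fold for the median of the other candidates. It reached 64-fold or more in 45 members and 256-fold or more in 7 members, against 4 and 0 of the other candidates. Of these 7 members, 3 owe their range to 1 spot each that the scanner software had marked as non-uniform. They are HT_SCCWRP_42287 (2464-fold), HT_SCCWRP_71044 (950-fold) and HT_SCCWRP_3389 (563-fold), described below. The members held 16.7% of the candidates' summed variance between fish. The last members were HT_SCCWRP_3430, with an SD of 1.1459, and HT_SCCWRP_3929, with 1.14588. The first probes outside were HT_SCCWRP_9455, with 1.1451, and HT_SCCWRP_12871, with 1.13644, so the limit falls in a continuous run of values. The limit on detection also leaves variable transcripts out: 532 of 4930 probes that were well above background on some arrays, but on at least 5, had an SD at or above that of the last member.

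**Figure D1:**
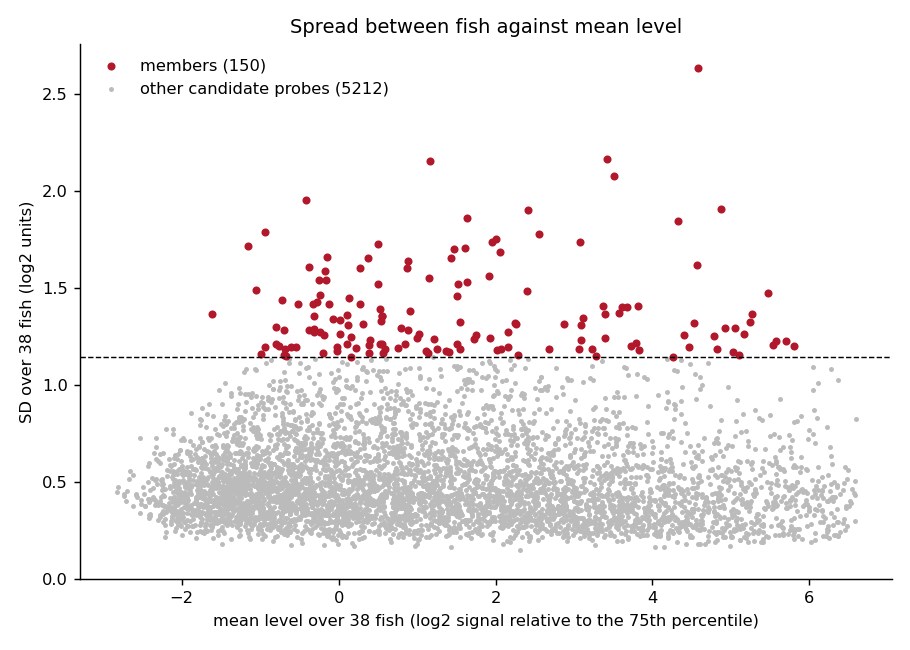
Each point is a probe, with its mean level over 38 fish on the x axis and its SD over 38 fish on the y axis, both in log2 units. The dashed line is the SD of the last of the 150 members, which lie above it at mean levels from -1.62 to 5.80, with the 5212 other candidates in grey below.

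The members covered most of the candidates' range of mean level, but not its dimmest part. Their mean levels ran from -1.62 to 5.80 with a median of 1.16. In the other candidates they ran from -2.82 to 6.59 with a median of 0.86. Of the 150 members 37 (24.7%) averaged below the 75th percentile of the array, against 37.2% of the other candidates. The scanner software's own error model gave a median spot error of 0.145 log2 units for the members and also for the other candidates. The lowest error was 0.144 in both, close to these medians, so it tells little about single probes. As a median over fish the spot error does not show a single faulty spot. It was 0.156, 0.145 and 0.148 for HT_SCCWRP_42287, HT_SCCWRP_71044 and HT_SCCWRP_3389, each of which had 1 marked spot. The array holds no repeated spots of any member, so their spot error was not measured directly. For 16 other probes, which have 10 spots each and were detected in all fish, the median SD between spots of 1 array was 0.0633 log2 units, against a median SD between fish of 0.354. Members lay all over the array, from row 3 to row 192 and from column 1 to column 82. Of the 150, 70 were in the upper 96 rows and 89 in the left 41 columns. An absolute r of 0.5 or more with array brightness, the log2 of the 75th percentile, was found for 1 of 150 members (0.667%) and 293 of the 5212 others (5.62%). The rule chose on the total spread, so nothing is read from this difference.

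In 3 members the spread came from 1 spot that the scanner software had marked as non-uniform. HT_SCCWRP_42287 had a level of 8.69 in Low PBDE 12 and at most -0.42 in the other fish, and its SD of 1.71 was 0.507 without that fish. HT_SCCWRP_71044 had a level of 10.51 in Seawater Control 6 and at most 2.11 elsewhere, with an SD of 1.53 and of 0.397 without it. HT_SCCWRP_3389 had a level of 8.19 in High PBDE 18 and at most -0.07 elsewhere, with an SD of 1.43 and of 0.200 without it. These 3 probes meet the rule but are left out of every test below, which covers the other 147 members. A single fish held more than 50% of the variance in 3 further members with no marked spot. These were HT_SCCWRP_43372, at 4.53 in Low PBDE 5 against a median of -1.96 over all fish, HT_SCCWRP_16577, at -0.76 in High PCB 41 against a median of 4.90, and HT_SCCWRP_3929, at 9.72 in Oil Control 45 against a median of 4.26. At the other end, 97 of the 150 members kept an SD at or above the limit after the fish farthest from the mean was left out.

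The most variable member, HT_SCCWRP_39451, had an SD of 2.63 and differed 1039-fold between High PBDE 4, at 7.56, and High PCB 3, at -2.46. Its lowest, median and highest levels were 1.82, 4.40 and 7.03 in Low PBDE fish and 3.76, 6.04 and 7.56 in High PBDE fish. The 5 Low PCB fish were at 0.90, 3.36, 5.84, 6.23 and 6.71, and the High PCB fish had -2.46, 4.09 and 7.33 as lowest, median and highest level. In the controls these were -1.87, 5.17 and 6.89 in Oil Control fish and 3.45, 6.69 and 7.07 in Seawater Control fish. Of the 38 fish, 3 High PCB fish and 1 Oil Control fish lay below a level of 0 and the other 34 above it, and the ranges of all 6 groups overlapped.

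The next 2 members by SD filled both a low and a high end of their range. HT_SCCWRP_686 (SD 2.17) ranged from -0.03 in Seawater Control 7 to 6.85 in High PBDE 11. The 5 Low PCB fish show the pattern in 1 group, with levels of 0.50, 0.64 and 1.21 in 3 fish and 6.09 and 6.46 in the other 2. HT_SCCWRP_4221 (SD 2.16) ranged from -2.59 in Low PCB 29 to 4.12 in High PCB 21, with group medians from 0.51 in Seawater Control fish to 2.19 in High PBDE fish. Low and high fish occurred in every group for both probes. HT_SCCWRP_2888 (SD 2.08) had group medians between 2.62 in High PCB fish and 4.92 in High PBDE fish, and 1 High PBDE fish, number 44, lay at 0.28 while the other 5 were between 4.52 and 6.82.

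HT_SCCWRP_15530 (SD 1.95) and HT_SCCWRP_37904 (SD 1.90) had r = 0.80 with each other, and each was very high in the same pair of fish. For HT_SCCWRP_15530 the median over all fish was -0.93, and the highest levels were 6.89 in High PBDE 11 and 5.85 in High PCB 40. For HT_SCCWRP_37904 the median was 2.32, and High PBDE 11 was at 7.89 while the other 5 High PBDE fish were between 2.50 and 4.01. The highest of the High PCB fish was at 7.36. The other 4 of the 10 most variable members were HT_SCCWRP_190 (SD 1.91, 1.51 to 7.97), HT_SCCWRP_24778 (SD 1.86, -1.68 to 4.94), HT_SCCWRP_38833 (SD 1.85, 1.18 to 7.48) and HT_SCCWRP_16160 (SD 1.79, -3.63 to 2.12). For 0 of the 10 did the ranges of any pair of the 6 groups separate. Such a pair was found for 9 of the 147 members kept for testing (6.12%), against 3% of all 10492 probes tested, and since the rule chose on the total spread nothing is read from this. Among the 45 pairs that these 10 probes form, 2 had an absolute r of 0.5 or more.

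**Figure D2:**
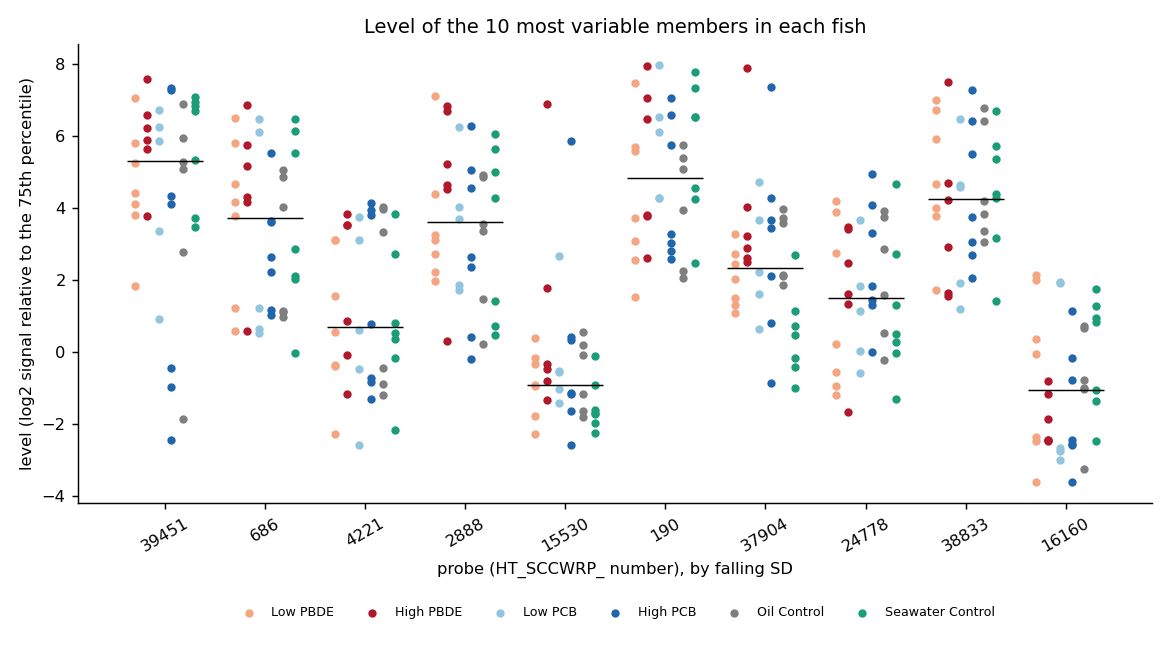
Level in each of 38 fish (y axis, log2 signal relative to the 75th percentile) of the 10 members with the highest SD (x axis, by falling SD), coloured and offset by group, with the median over all fish as a line. The groups overlap for every probe, and HT_SCCWRP_15530 and HT_SCCWRP_37904 each have 1 High PBDE and 1 High PCB fish far above the rest.

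The nearest pattern among all 10492 tested probes was a fellow member for only 1 of these 10, HT_SCCWRP_37904 with HT_SCCWRP_846 (r = 0.82 over 38 fish). For HT_SCCWRP_2888 it was HT_SCCWRP_39405 (r = 0.84), for HT_SCCWRP_15530 HT_SCCWRP_10182 (r = 0.83), for HT_SCCWRP_38833 HT_SCCWRP_16112 (r = 0.77) and for HT_SCCWRP_39451 HT_SCCWRP_41141 (r = 0.76). For HT_SCCWRP_4221 it was HT_SCCWRP_9014 (r = 0.64). HT_SCCWRP_686, HT_SCCWRP_190, HT_SCCWRP_24778 and HT_SCCWRP_16160 had no probe above r = 0.59. With the best of the 10492 probes taken each time, values of this size describe how alone these transcripts stood and carry no test.

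The shape of each member's spread is again a description of values that the rule had used. An excess kurtosis below -1, reached by values spread evenly over their range as well as by values in 2 classes, was found in 24 of 150 members (16.0%) and 126 of 5212 others (2.42%). Splitting the fish of a probe at the best point into a low and a high class left at least 75% of the variance between the classes in 48 members (32.0%) and 218 others (4.18%). Values spread evenly over their range also reach about 75%, so this cut does not show 2 classes. An empty stretch of at least 20% of the range, with 3 or more fish on each side, was found in 10 members (6.67%) and 118 others (2.26%).

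The widest empty stretch relative to its range belonged to HT_SCCWRP_43219, where 7 fish lay between -0.75 and -0.15 and the other 31 between 1.87 and 4.04. The 7 low fish were 1 of 7 Low PBDE, 2 of 7 High PCB, 3 of 6 Oil Control and 1 of 7 Seawater Control fish, of all 3 sex classes, on 4 of the 8 slides. HT_SCCWRP_14036 had the most even split of the 6 members with the widest gaps, with 17 fish between -2.32 and -0.72 and 21 between 0.58 and 2.08, and the lowest excess kurtosis of all candidates, -1.77. Its low class held 4 of 7 Low PBDE, 4 of 6 High PBDE, 1 of 5 Low PCB, 4 of 7 High PCB, 3 of 6 Oil Control and 1 of 7 Seawater Control fish, and came from 7 of the 8 slides. Both classes thus held fish of every group.

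In HT_SCCWRP_2746, 5 fish lay between 3.51 and 4.37 and the other 33 at 1.78 or less. The 5 high fish were 2 of 6 High PBDE, 1 of 7 High PCB and 2 of 7 Seawater Control fish. In HT_SCCWRP_9582, 4 fish lay at 2.84 or more, 1 in each of the 4 exposed groups and all male, and the other 34, which include all control fish, at 0.81 or less. HT_SCCWRP_32522 had 3 fish at -1.90 or less and 35 at -0.41 or more. HT_SCCWRP_13630 had 3 fish, all male, at 5.72 or more and 35 at 4.41 or less. The small classes of these 4 probes held at most 2 fish of any group.

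**Figure D3:**
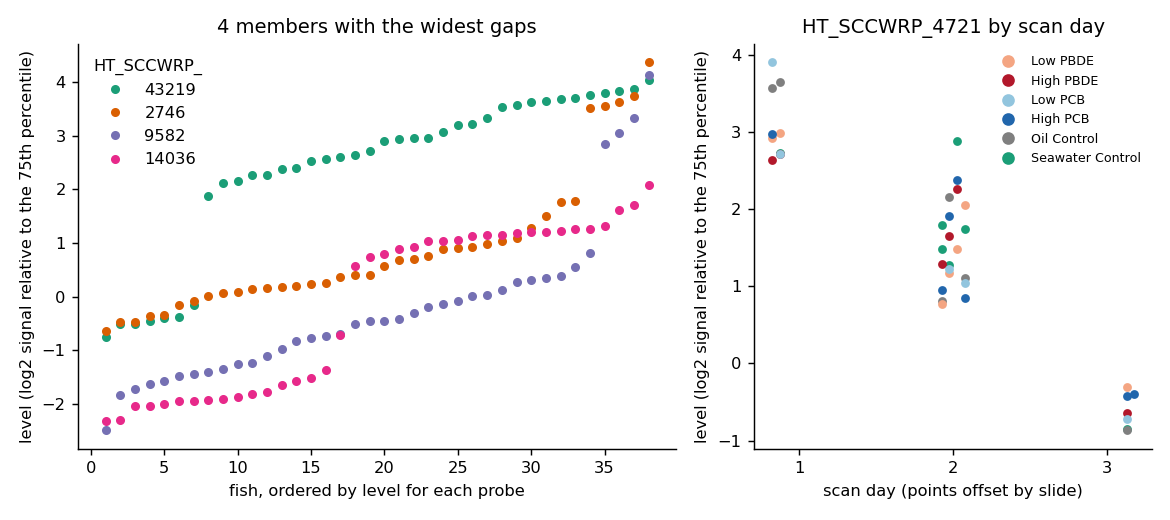
Left, the levels (y axis, log2 signal relative to the 75th percentile) of 4 members with wide gaps, with the 38 fish ordered by level for each probe (x axis): HT_SCCWRP_14036 splits into 17 low and 21 high fish and HT_SCCWRP_43219 into 7 low and 31 high. Right, the level of HT_SCCWRP_4721 in each fish by scan day (x axis, points offset by slide and coloured by group), where the 7 fish of day 3 all lie below those of days 1 and 2.

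Most pairs of members showed little likeness. Over their 11175 pairs the median r was 0.003, and an absolute r of 0.5 or more was found in 2.36% of pairs, against 2.25% of the pairs of other candidates. Very close pairs were more frequent among members. An r of 0.9 or more was found in 20 of the 11175 pairs, against 746 of the 13579866 pairs of other candidates. Of these 20 pairs, 5 lay outside the block of 6 members described next. For 71 of the 150 members no other member reached r = 0.5. Average-linkage clustering at r = 0.5 gave 101 clusters, of which 79 held 1 member, 16 held 2 to 4 members (37 in all) and 6 held 5 or more (34 in all). All points share the same 38 arrays, so these values carry no p.

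The main exception was a block of 6 members, HT_SCCWRP_40565, HT_SCCWRP_997, HT_SCCWRP_11560, HT_SCCWRP_14462, HT_SCCWRP_31312 and HT_SCCWRP_18464. All 15 pairs among them had r between 0.95 and 0.99, and they made up 15 of the 20 pairs of members at r = 0.9 or more. They come from different contig numbers and lie at different places on the array, for example 7 rows and 22 columns apart for HT_SCCWRP_40565 and HT_SCCWRP_997. Their mean levels differed, from 0.01 to 4.82. Whether the 6 probes belong to different genes or to fragments of 1 transcript was not tested, since no sequence of them was used here.

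Over the fish, the mean level of these 6 probes ran from -0.21 in High PCB 21 to 4.01 in Low PBDE 12. For HT_SCCWRP_40565 the lowest, median and highest levels were -0.90, 0.28 and 2.84 in Low PBDE fish, -0.997, -0.53 and 1.69 in High PBDE fish, and -1.76, -0.43 and 2.65 in High PCB fish. The Low PCB fish ranged from -1.20 to 1.72 with a median of -0.33. In Oil Control fish the lowest, median and highest levels were 0.02, 1.75 and 2.31, and in Seawater Control fish 0.02, 1.26 and 1.86. Every exposed group overlapped both control groups for this probe. The same order of medians, with the 4 exposed groups below both control groups, held for each of the 6 probes. The limma test of any difference between the 6 groups gave HT_SCCWRP_40565 an adjusted p of 0.668, and the smallest adjusted p of any of the 6 probes in a group or sex comparison was 0.364. The block counts as 1 pattern, and the groups took 23.0% of the variance of the mean of its cluster, which adds HT_SCCWRP_38833 and HT_SCCWRP_8251 at r = 0.52 and 0.54 to HT_SCCWRP_40565. In the other clusters described below this share ran from 14.0%, in the second, to 30.1%, in the fourth. Groups unrelated to the level would also take a share above 0, so these shares carry no test.

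The second cluster (6 members, most central HT_SCCWRP_13321, mean r 0.59 between members) was highest in Low PCB 52, with a mean level of 5.05, and High PCB 41, with 4.67, and lowest in High PBDE 11, with 0.82. The third (5 members, HT_SCCWRP_11360, mean r 0.67) held the tightly linked HT_SCCWRP_11360 and HT_SCCWRP_10413 (r = 0.94). Its mean ran opposite to that of the first cluster (r = -0.75 over 38 fish), with 3.25 in Seawater Control 46 as highest and -1.36 in Oil Control 20 as lowest value. In the first cluster these fish were at 1.45 and 4.11, against a median of 2.46 over all fish.

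The fourth cluster (5 members, HT_SCCWRP_37904, mean r 0.61) holds HT_SCCWRP_15530 and repeats the pair of fish seen there, with mean levels of 5.41 in High PBDE 11 and 5.30 in High PCB 40 and a median of 0.92 over all fish. Its Seawater Control fish lay low, between -0.62 and 0.41. The fifth (5 members, HT_SCCWRP_13977, mean r 0.57) ran opposite to the second (r = -0.69) and the first (r = -0.63), and its Oil Control fish lay in a narrow band from 1.42 to 2.36 within the overall range of 0.88 to 4.80. The sixth (5 members, HT_SCCWRP_7333, mean r 0.57) was highest in High PCB 41, with 5.62, Low PCB 52, with 3.99, and Oil Control 20, with 3.90, against a median of 1.05. Beyond the clusters, HT_SCCWRP_5340 was close to HT_SCCWRP_2462 (r = 0.94) and HT_SCCWRP_40592 (r = 0.92), which had r = 0.88 with each other. HT_SCCWRP_13630 and HT_SCCWRP_17731 (r = 0.92) and HT_SCCWRP_2195 and HT_SCCWRP_34793 (r = 0.92) formed close pairs. The lowest r between any pair of members was -0.77, between HT_SCCWRP_8251 and HT_SCCWRP_12774.

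**Figure D4:**
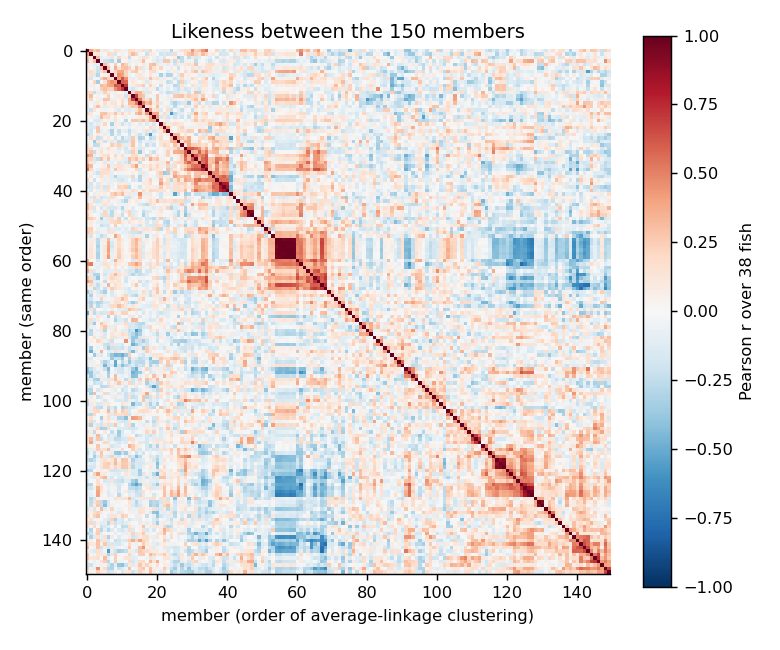
Pearson r over 38 fish between every pair of the 150 members (colour), with members in the order of average-linkage clustering on both axes. Most of the 11175 pairs are near 0, and the dark square on the diagonal is the block of 6 members with r between 0.95 and 0.99.

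Each fish was the highest or the lowest of all 38 for between 2 and 20 of the 150 members, with a median of 7. High PCB 41 was extreme for 20 members, and highest in 16 of them. Low PBDE 12 was extreme for 18, highest in 11, and Oil Control 20 for 15, lowest in 11. The share of the members' variance held by 1 fish ran from 1.74% to 4.42%, against 1.78% to 4.90% in the other candidates.

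The spread inside the groups was nearly as wide as over all fish. The median SD of the 150 members within a group was 1.25 in Low PBDE, 1.21 in High PBDE, 1.26 in Low PCB, 1.33 in High PCB, 1.18 in Oil Control and 1.18 in Seawater Control fish. The other candidates had medians from 0.358 to 0.441 within the groups. After a limma model had taken out group and sex, the median SD of the residuals of the 147 tested members was 1.26, against 0.437 in the other candidates. When the tested candidates were ranked by this residual SD instead, 124 of the 147 tested members were among the highest 150.

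The variance of each probe was also divided by group, sex, slide and scan day. The share between the 6 groups had a median of 15.9% in the 147 members and 14.2% in the other candidates, and the share between the sex classes 5.69% and 4.38%. Slides took a median of 18.0% in the members and 25.7% in the others, and scan days 4.11% and 8.31%. A factor unrelated to the level would also take a share above 0, and a larger one with more classes. Shares of different factors are therefore not compared, and none carries a test. The rule chose on the total spread, so nothing is read from the gaps between members and others. The members with the highest shares were HT_SCCWRP_7564 for group (40.1%), HT_SCCWRP_27618 for sex (34.3%) and HT_SCCWRP_4721 for both slide (91.2%) and scan day (86.3%).

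**Figure D5:**
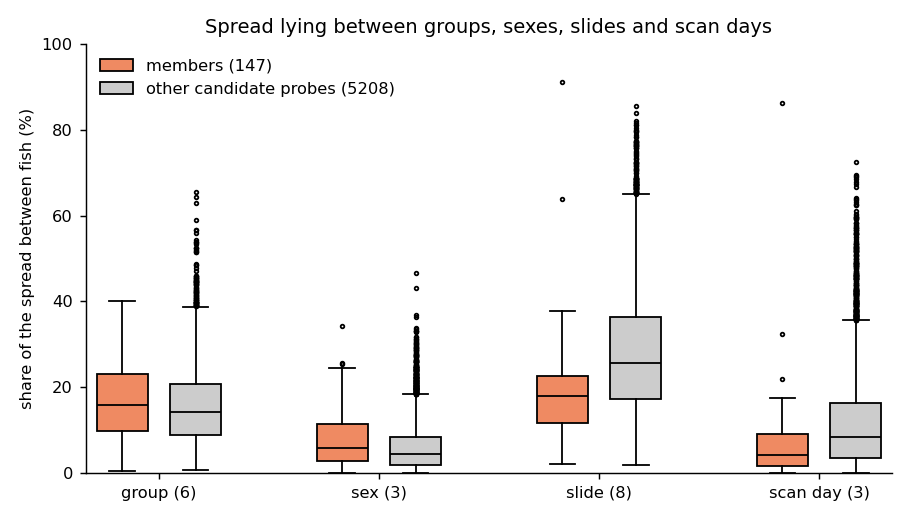
Share of the variance between fish (y axis, %) that lies between the 6 groups, 3 sex classes, 8 slides and 3 scan days (x axis), for the 147 tested members and the other candidates, with boxes from the lower to the upper quartile, a line at the median, whiskers to 1.5 times the box height and single probes beyond as points. The medians are 15.9% and 14.2% for group and 18.0% and 25.7% for slide. An unrelated factor takes a larger share with more classes, so the factors are not compared with each other.

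Whether any exposure moved these transcripts was tested with limma over all 10492 probes well above background on at least 5 arrays, with group and sex in the model and p-values adjusted over all of them by the Benjamini-Hochberg method. A probe passed at an adjusted p under 0.05. The log2 differences below come from this model. They are adjusted for sex and can differ from the gap between the levels printed. In the test of any difference between the 6 groups 0 of 147 members passed, against 0.0381% of all probes, and the smallest adjusted p of a member was 0.357, for HT_SCCWRP_37904. At an unadjusted p under 0.05 there were 27 members (18.4%), against 7.73% of all probes. In an ordinary test per probe, without limma's moderation, there were 17 (11.6%), against 7.16%. The rule chose on the total spread, of which the spread between groups is a portion, so nothing is read from these shares. The median standard error of a member's log2 difference lay between 0.64 and 0.80 in the 9 group comparisons, against 0.30 to 0.38 over all probes.

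Against Oil Control, which isolates the mixtures from the injection, 0 of 147 members passed after Low PBDE (0% of all probes passed), and 16 were at an unadjusted p under 0.05 with limma (4.4% of all probes) and 11 with the ordinary test (4.24%). After High PBDE 0 members passed (0% of all probes), and 24 were at an unadjusted p under 0.05 with limma (4.81% of all probes) and 22 with the ordinary test (4.57%). The median log2 difference of the members was -0.14 after Low PBDE and 0.24 after High PBDE, against -0.01 and -0.05 over all probes.

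The member with the smallest p on the higher side after Low PBDE was HT_SCCWRP_8390, with lowest, median and highest levels of 3.48, 4.58 and 5.20 in Low PBDE fish and 1.26, 2.29 and 3.73 in Oil Control fish. On the lower side HT_SCCWRP_31933 had -1.66, -0.61 and 0.76 in Low PBDE fish and 0.71, 1.66 and 3.25 in Oil Control fish. In both, the groups overlapped only at their edges. Their log2 differences of 2.02 ± 0.54 and -2.47 ± 0.62 (SE, n = 7 and 6) had a limma adjusted p of 0.998 each. Seawater Control fish had 2.06, 3.76 and 4.03 for HT_SCCWRP_8390 and -2.13, 1.17 and 2.35 for HT_SCCWRP_31933. Of the 6 groups, Oil Control had the lowest median for HT_SCCWRP_8390 and the highest for HT_SCCWRP_31933.

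After High PBDE, HT_SCCWRP_45554 had lowest, median and highest levels of -2.29, -0.02 and 4.14 in High PBDE fish and -3.05, -1.34 and -0.72 in Oil Control fish. HT_SCCWRP_26874 had -2.45, -1.12 and -0.79 in High PBDE fish and -0.56, -0.02 and 3.59 in Oil Control fish, and here the groups did not overlap, which was so for 3 of 147 members and 0.305% of all probes. The log2 differences were 2.22 ± 0.73 and -2.003 ± 0.60 (SE, n = 6 each), with a limma adjusted p of 0.981 each. These groups hold the 2 immature fish, and without either of them the differences were 1.42 and -1.18, since the remaining one was then alone in its sex class. In male fish only, the difference of HT_SCCWRP_45554 was 1.07. High PBDE fish averaged above Oil Control fish for HT_SCCWRP_45554 on 3 of the 5 slides that held both groups, and below them for HT_SCCWRP_26874 on 5 of 5. Seawater Control fish had -2.09, -1.50 and -1.10 for HT_SCCWRP_45554 and -1.07, -0.25 and 3.17 for HT_SCCWRP_26874, and overlapped High PBDE fish in both.

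After Low PCB 0 of 147 members passed against Oil Control (0% of all probes), and 26 were at an unadjusted p under 0.05 with limma (7.51% of all probes) and 25 with the ordinary test (7.42%). After High PCB 0 members passed (0.00953% of all probes), and 12 were at an unadjusted p under 0.05 with limma (7.41% of all probes) and 9 with the ordinary test (7.39%). The median log2 difference of the members was 0.14 after Low PCB and 0.17 after High PCB, against 0.01 and -0.04 over all probes.

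HT_SCCWRP_33470 had levels of 0.28, 0.57, 0.66, 1.40 and 1.77 in the 5 Low PCB fish, while the lowest, median and highest Oil Control levels were -1.57, -0.68 and -0.18. HT_SCCWRP_46883 had 0.20, 0.41, 2.74, 3.10 and 3.19 in the Low PCB fish, and 3.25, 3.63 and 3.98 as lowest, median and highest level in Oil Control fish. Neither probe's groups overlapped, which was so for 4 of 147 members and 0.753% of all probes. The log2 differences, adjusted for sex, were 2.53 ± 0.64 with a limma adjusted p of 0.465 and -2.50 ± 0.68 with 0.478 (SE, n = 5 and 6). The unadjusted means of Low PCB and Oil Control fish lay closer together. They were 0.93 and -0.78 for HT_SCCWRP_33470 and 1.93 and 3.63 for HT_SCCWRP_46883. Seawater Control fish had -1.32, 0.46 and 2.87 for HT_SCCWRP_33470 and 0.77, 2.29 and 3.55 for HT_SCCWRP_46883, and overlapped both groups. Of the 6 groups, Oil Control had the lowest median for HT_SCCWRP_33470 and the highest for HT_SCCWRP_46883. These 2 probes mirrored each other over all 38 fish (r = -0.75), and 4 of the 5 Low PCB fish but 1 of the 6 Oil Control fish were female.

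After High PCB, HT_SCCWRP_12774 had lowest, median and highest levels of 3.75, 5.24 and 7.15 in High PCB fish and 1.41, 4.24 and 4.68 in Oil Control fish. HT_SCCWRP_7564, the member with the highest share of variance between groups, had -2.16, 0.75 and 4.91 in High PCB fish and 1.99, 3.41 and 5.16 in Oil Control fish. The groups overlapped in both. The log2 differences were 1.43 ± 0.54 with a limma adjusted p of 0.596 and -2.31 ± 0.82 with 0.574 (SE, n = 7 and 6). Low levels of HT_SCCWRP_7564 were not particular to High PCB: Low PBDE fish had -0.06, 1.31 and 2.18 as lowest, median and highest level. Its medians were 4.25 in High PBDE, 3.67 in Low PCB and 2.37 in Seawater Control fish.

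Oil injection alone was compared with no injection, and 0 of 147 members passed (0% of all probes), with 20 at an unadjusted p under 0.05 with limma (7.23% of all probes) and 19 with the ordinary test (7.15%). HT_SCCWRP_796 had lowest, median and highest levels of 1.87, 2.28 and 3.97 in Oil Control fish and -0.86, 0.58 and 2.18 in Seawater Control fish. HT_SCCWRP_6949 had -0.27, 0.47 and 1.02 in Oil Control fish and 0.55, 2.25 and 4.63 in Seawater Control fish. The groups overlapped at their edges in both. The log2 differences were 1.84 ± 0.62 with a limma adjusted p of 0.441 and -1.89 ± 0.57 with 0.348 (SE, n = 6 and 7). With Seawater Control 7, which its description calls a vehicle control, moved to the Oil Control group, the second difference was -0.91.

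Against Seawater Control, where exposure and injection combine, 0 of 147 members passed in any of the 4 exposures, which all share the same 7 Seawater Control fish. After Low PBDE, 0.0477% of all probes passed, and 13 members were at an unadjusted p under 0.05 with limma (6.8% of all probes) and 12 with the ordinary test (6.68%). After High PBDE, 0% of all probes passed, and 24 members were at an unadjusted p under 0.05 (8.18% of all probes) and 17 with the ordinary test (8.09%). After Low PCB, 0.0858% of all probes passed, and 22 members were at an unadjusted p under 0.05 (8.32% of all probes) and 20 with the ordinary test (8.27%). After High PCB, 0.0762% of all probes passed, and 20 members were at an unadjusted p under 0.05 (9.05% of all probes) and 15 with the ordinary test (9.01%). The members' median log2 differences lay between 0.00 and 0.13, against -0.05 to 0.03 over all probes.

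The smallest adjusted p of any member in these group comparisons, 0.123 with limma, belonged to HT_SCCWRP_37904 after High PBDE. Its lowest, median and highest levels were 2.50, 3.05 and 7.89 in High PBDE fish and -1.02, 0.47 and 2.69 in Seawater Control fish. In High PCB fish they were -0.87, 3.44 and 7.36, and in Oil Control fish, which received no mixture, 1.84, 2.85 and 3.95. All 6 High PBDE fish lay above the median of the Seawater Control fish, and the ranges overlapped in both exposures. The log2 difference from Seawater Control was 3.75 ± 0.87 (SE, n = 6 and 7) after High PBDE and 2.73 ± 0.80 (SE, n = 7 each) after High PCB, with a limma adjusted p of 0.235 in the second.

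The other members with the smallest p in these comparisons were HT_SCCWRP_796 (log2 difference 1.73) and HT_SCCWRP_32752 (-1.94) after Low PBDE, HT_SCCWRP_17473 (-2.54) after High PBDE, HT_SCCWRP_1121 (2.02) and HT_SCCWRP_11560 (-1.95) after Low PCB and HT_SCCWRP_21680 (-1.95) after High PCB. Their limma adjusted p-values lay between 0.213 and 0.404. HT_SCCWRP_11560 belongs to the block of 6 described above, with levels of -1.53, -0.996, -0.45, 0.16 and 1.80 in the Low PCB fish, against 0.20, 1.51 and 1.92 as lowest, median and highest level in Seawater Control fish. HT_SCCWRP_1121 had -1.03, 0.22, 0.57, 1.97 and 2.87 in the Low PCB fish, against -2.96, -0.99 and 0.09 in Seawater Control fish. With only the males, which leaves 1 Low PCB fish, its difference was 0.01.

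Between the sexes 0 of 147 members passed (0% of all probes), with 16 at an unadjusted p under 0.05 with limma (5.67% of all probes) and 14 with the ordinary test (5.6%). HT_SCCWRP_4351 had lowest, median and highest levels of 5.41, 5.86 and 6.71 in the 10 females and 0.69, 4.66 and 6.06 in the 26 males. The females thus lay in a narrow band at the top of the range, while the males reached down to levels far below it. The log2 difference was 1.96 ± 0.47 (SE), with a limma adjusted p of 0.380. HT_SCCWRP_33470, which was named after Low PCB, had -1.57, -0.21 and 1.86 in females and -1.20, 0.83 and 3.44 in males, with a log2 difference of -1.40 ± 0.41 (SE) and an adjusted p of 0.670.

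Slides and scan days were tested in the same way. Of 147 members 3 passed the limma test of any difference between the 8 slides, against 9.9% of all probes, and 1 passed the test between the 3 scan days, against 7.81% of all probes. The 3 were HT_SCCWRP_4721 (adjusted p 1.38e-08), HT_SCCWRP_3430 (0.00560) and HT_SCCWRP_5340 (0.0477), and the test of scan days was passed by HT_SCCWRP_4721 (adjusted p 1.47e-10). The level of HT_SCCWRP_4721 lay between 2.64 and 3.91 in the 10 fish scanned on day 1, between 0.78 and 2.89 in the 21 of day 2 and between -0.87 and -0.30 in the 7 of day 3. The median 75th percentile of the arrays fell in the same order, at 149, 119 and 84.0 intensity units, and HT_SCCWRP_4721 was the 1 member with an absolute r of 0.5 or more with it (r = 0.75). Each slide was scanned on 1 day, so scan day and slide cannot be told apart for this probe. Array brightness overlapped between day 2, at 86.7 to 163 intensity units, and day 3, at 43.6 to 109, while the levels of HT_SCCWRP_4721 did not. Which of these the level followed was not tested. With slide as a block in the model, none of the 20 differences named above passed, and all kept their sign.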

How the data were processed

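Liver RNA of 38 fish was hybridised to 1-colour Agilent arrays. Per the labels' protocols, RNA came from a Trizol kit and was made into labelled cRNA with a low-input amplification kit, and the labels give RNA integrity for all samples together, not per fish. Per the file headers, the authors extracted spot intensity with Feature Extraction 11.5.1.1, and the processed signal is already background-subtracted. The deposited table of the whole series holds the same intensity values, with a largest difference of 0.497%, column medians from 5.1 to 25.1 and no scaling between arrays; it served as an alternative. No spot was saturated.

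Control spots were left out, spots of 1 probe were averaged, and log2 levels were taken relative to the 75th percentile of each array. Groups were tested with limma 3.58.1 (R 4.3.3, lmFit and eBayes with a trend) with group and sex as terms over all 38 fish, after testing on simulated data. The fit took 10492 probes well above background on at least 5 arrays, without probes that had every spot marked as an outlier on any array. The text names the 10 members with the highest SD, the probes at the limit, the member with the smallest p on each side of each comparison, the centre of each cluster of 5 or more and the nearest probe to each of the 10. The 6 widest gaps, the block of 6, the close pairs and the members carried by 1 fish were chosen after their values were seen. The members and lists were chosen with earlier results of these data known. Lists of liver and cell type markers could not be applied, because probes have no gene names. The title and source of Seawater Control 7 name a seawater control and its description a vehicle control; it was kept with the Seawater Control fish. Each sample is a separate fish, and the number of arrays and the spread between fish limit the precision.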

Additional observations from a re-analysis of the deposited data

Results flagged for a closer look

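Dixon's test was run on values of the named members within groups of 5 to 7 fish. For members named between the sexes it also covered the 10 females. It found 1 fish far from the others in 6 of 93 sets of values, all within groups. On values not used to choose the probes it flags about 1 in 20 by chance. These members were chosen by SD or by p from the same values, and HT_SCCWRP_15530 and HT_SCCWRP_37904 vary together. That rate therefore does not apply here, and the 6 are given as a description. HT_SCCWRP_37904 was at 7.89 in High PBDE 11 and between 2.50 and 4.01 in the other 5 High PBDE fish. HT_SCCWRP_15530, of the same cluster, was at 5.85 in High PCB 40 while the other 6 of that group ranged from -2.60 to 0.41, and at 2.67 in Low PCB 29 against -1.43 to -0.54 in the other 4 Low PCB fish. HT_SCCWRP_2888 was at 0.28 in High PBDE 44 against 4.52 to 6.82 in the other 5 High PBDE fish. HT_SCCWRP_21680 was at 3.72 in High PCB 3 with the remaining 6 of the group between 0.57 and 1.81. HT_SCCWRP_12774 was at 1.41 in Oil Control 20 against 4.15 to 4.68 in the other 5 Oil Control fish.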

How the results depend on the processing

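No paired analysis was possible because each fish number occurs in 1 group alone. No member passed in any of the 11 group and sex comparisons under the 12 to 14 other settings of each (quantile normalization, median centring, normexp, the filter on dim probes, the sex term, males only, slide as a fixed or random block, Seawater Control 7 left out or moved, the deposited table, and, chosen after seeing the data, no moderation and robust moderation) or without any 1 of the 38 fish. Of the 23 named results, 0 changed sign or side of the threshold, and 6 of the 20 named differences moved by over 1.5 times under some setting. Beside those given above, normexp brought HT_SCCWRP_26874 to -1.30, HT_SCCWRP_32752 to -1.10, HT_SCCWRP_1121 to 1.19 and HT_SCCWRP_11560 to -1.12; the cause was not tested.

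The rule chose 92 of the 150 members again with normexp and its offset of 50, and 122 to 150 under the other 10 settings. Without 1 fish it chose 140 to 149. The number of members that differed between slides was 3, but 1 in males only, with fewer arrays, and 2 to 4 without 1 fish. The number that differed between scan days was 1, but 2 with median centring, without the sex term or in males only, and 3 with no filter on dim probes. Without 1 fish it was 1 to 8: it was 8 without High PCB 3, 3 without High PBDE 11 or Low PCB 29, and 2 without Low PBDE 5, 12 or 13, Low PCB 2, High PCB 32, Oil Control 47 or Seawater Control 46. The causes were not tested, and the large spread of the members limits what 5 to 7 fish a group can show.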
